A study of Mus musculus with 4 samples.

Results

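The genes described here encode parts of vesicle traffic and of the vacuolar proton pump on Affymetrix MG_U74Av2 mouse arrays. A probe set was taken when the platform annotation gave it a single gene whose symbol began with Atp6v, Vamp or Ap1, Ap2 or Ap3 and a letter, or with Stx, Syt, Snap or Rab and a digit. The rule used names only and no measured value. It gave 136 probe sets of 102 genes, of 8251 genes with a probe set of their own on the array. For 73 genes there was 1 probe set, and for the other 29 the brightest one over the 4 arrays was used.

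The study compared embryonic stem (ES) cells of the mouse line R1, a line derived from the inner cell mass, with neurospheres, free-floating clusters grown from neural stem and progenitor cells. There were 4 arrays, each with total RNA labelled with biotin. R1 cells kept unattached as embryoid bodies for 48 hours, in DMEM with LIF and beta-mercaptoethanol, gave 2 arrays, titled aggregation and suspension. R1 cells on gelatin in DMEM with LIF and beta-mercaptoethanol, the standard conditions for undifferentiated growth, gave 1 array and are called adherent cells below. Neurospheres from E13.5 (embryonic day) telencephalon, in a DMEM and F12 medium with FGF2, gave 1 array, and their label names astrocytes, glia and oligodendrocytes as contaminating cell types. The mouse strain of the neurospheres was not given in the sources used here. All R1 arrays come from 1 cell line, and LIF was present in every R1 culture, embryoid bodies included. Both embryoid body arrays carry 1 sample identifier, and no label states that their RNA was from separate cultures. Each p-value below from a fit with 3 groups (embryoid bodies, adherent cells and neurospheres) is therefore read against the spread of that pair alone. The spread of the pair is largely pooled over features of like signal. That spread may be technical or due to the culture forms in the titles. Fits with R1 cells as 1 group, as when an embryoid body array is left out, count embryoid body against adherent differences as spread.

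Vesicles carry membrane and cargo between the endoplasmic reticulum, the Golgi, endosomes, lysosomes and the cell surface. Adaptor complexes (AP) select cargo and recruit coats such as clathrin as a vesicle buds, Rab GTPases mark each compartment and recruit tethers, and SNARE proteins on vesicle (Vamp) and target (Stx, Snap) membranes zip together to fuse them. Synaptotagmins (Syt) bind membranes and SNAREs, and several of them trigger fusion in response to calcium. The vacuolar ATPase acidifies endosomes, lysosomes and secretory vesicles. Its cytosolic V1 sector hydrolyses ATP and turns a rotor that drives protons through the V0 sector in the membrane. In neurons the same machinery loads, releases and recycles synaptic vesicles, and in every cell it serves constitutive secretion and degradation.

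The deposited signals were on different scales. The mean signal, with 2% of probe sets trimmed at each end, was 32.5 for aggregation and 29.5 for neurospheres, against 1485 for suspension and 1490 for adherent cells, so a trimmed mean of 500 was set for every array. All signals below are on that scale, and all differences are of log2(signal + 32), which understates the change of dim genes. After scaling, array medians lay between 178 and 242 and the 10th percentiles between 17.4 and 33.8, both lowest on adherent cells. The ratio of 3' to 5' signal was 0.804 to 0.946 for Gapdh and 1.03 to 1.20 for actin. Defining markers of the cells were checked against the labels. Of 8 ES cell markers, 7 fell in neurospheres (Pou5f1 gave 7911, 10547, 10687 on the R1 arrays and 51.3 on neurospheres). Of 5 neural progenitor markers tested, 4 rose (Nes gave 424, 52.5, 289 and 3945 in that order). The other, Sox2, gave 8859, 9981, 9397 and 6644, lowest on neurospheres, and did not pass. Pax6 was not tested. Of all features 8.2% rose and 11.9% fell. Among the markers that rose, Fabp7 and Hes5 reached the array median on neurospheres only, so they were tested only through the array where they are high.

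Neurospheres were compared with R1 cells first, with embryoid bodies (their mean) and adherent cells weighted equally, and a gene was said to rise or fall when its limma p, adjusted by Benjamini-Hochberg over all 6843 features tested, was under 0.05. A gene was tested when its probe set reached the array median on at least 1 array. Of the 102 genes 76 were tested and 26 were not. In neurospheres 12 of the 76 rose and 6 fell, 18 in all or 23.7%, against 20.1% of all features. By direction, 15.8% of the tested genes rose against 8.2% of all features, and 7.89% fell against 11.9%. The median difference over the tested genes was 0.41, and over all features it was 0.10. Neurospheres lay above all 3 R1 arrays for 39 of the 76 genes (51.3%, against 35% of all features) and below all 3 for 20 (26.3%, against 32%). A gap of at least 2-fold on the signal + 32 scale above all 3 R1 arrays was seen for 8 genes (10.5%, against 9.18%) and below them for 4 (5.26%, against 9.37%). A lower signal in bulk RNA can come from fewer cells of a type or from less RNA per cell, and the arrays cannot tell these apart.

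These counts rest on a residual spread with 1 degree of freedom, and the fit takes the spread of the embryoid bodies for the neurosphere and adherent arrays, which have no replicate. The limma fit weighs that residual with a trend over features of like signal, which has 17.34 prior degrees of freedom. Most of each standard error (SE) comes from that trend, so an SE is not the measured spread of its own gene. Leaving out the aggregation array left 3 genes called higher and 2 lower, and leaving out suspension left 5 and 3, with the remaining R1 arrays fitted as 1 group in both cases. Without the intensity trend in the variance 2 rose and 1 fell. The shares of all features in these fits are not given here, so the loss cannot be set against that of all features. Only aggregation shared a deposited scale with neurospheres. Against that array alone the median difference of the tested genes was 0.17 (all features, -0.02). The difference was 0.15 to 3.48 for the 12 genes that rose and -3.31 to -0.66 for the 6 that fell, whose choice used the same arrays. With the 3 groups a scale term leaves no residual degree of freedom. A limma fit with R1 cells as 1 group and the scale as a term, chosen after seeing the data, leaves 1 and takes its spread from suspension against adherent cells. In that fit Rab31 and Syt11 rose (2.73% of all features rose) and Stx3 fell (3.49% fell), and the other 15 genes did not pass.

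**Figure D1:**
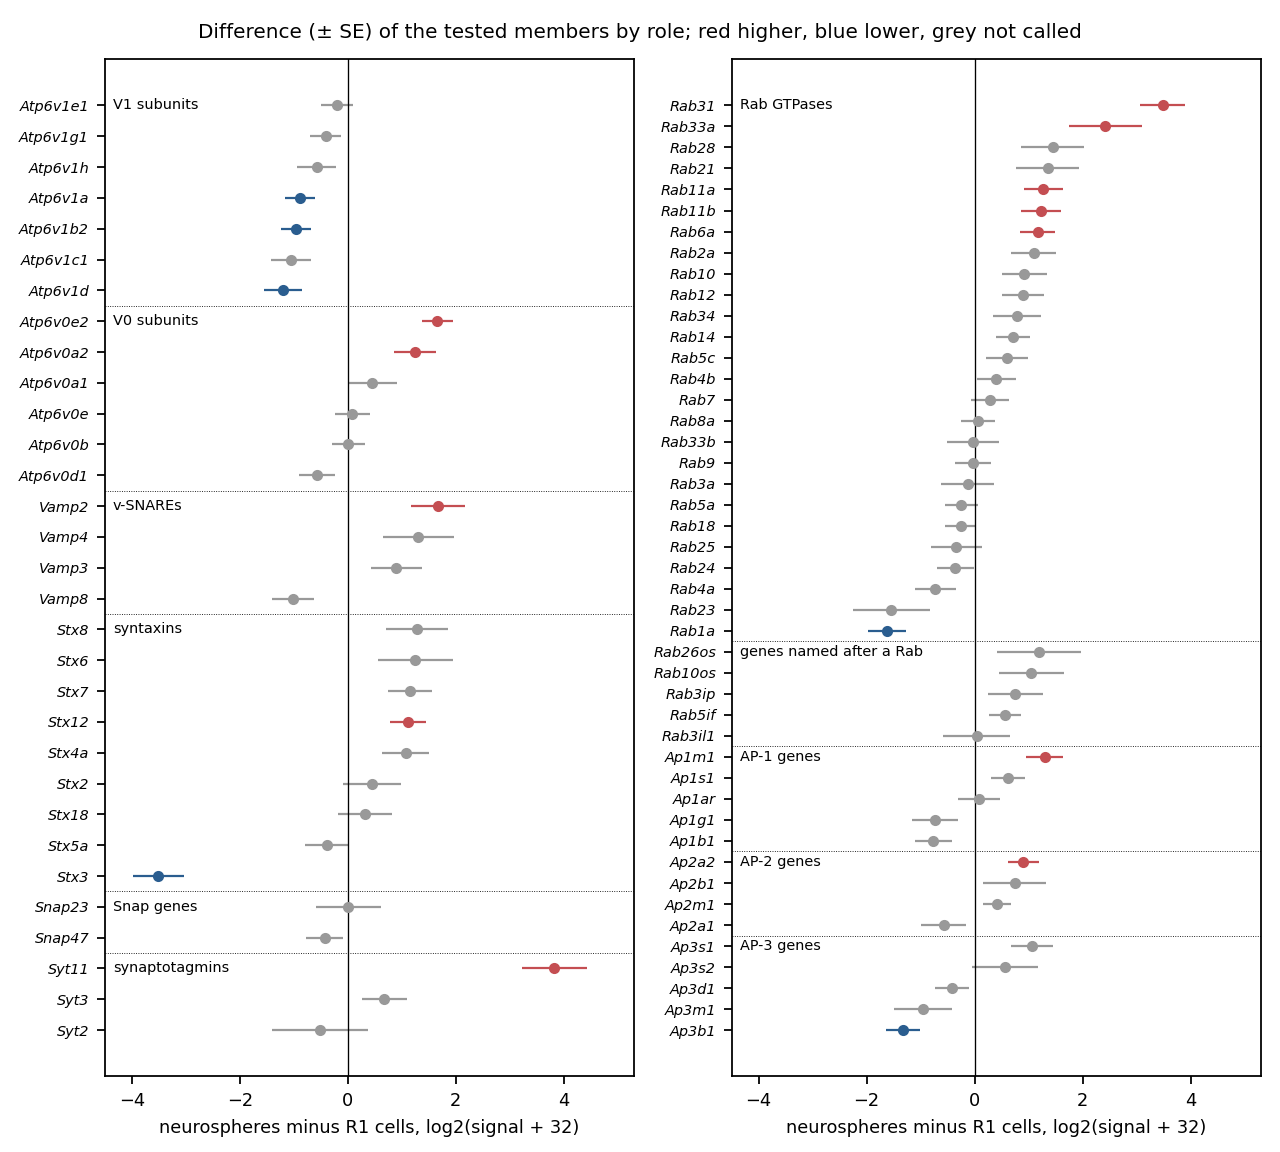
Difference between neurospheres and R1 cells, in log2(signal + 32), for each tested gene, grouped by role. Points are limma estimates, bars are 1 standard error, and colour shows genes that passed the adjusted p of 0.05 upwards (red) or downwards (blue). Most of each standard error comes from a trend over features of like signal and not from the gene itself. The 7 V1 subunits all lie below 0, while Rab31 at 3.48, Syt11 at 3.82 and Stx3 at -3.51 lie farthest out.

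The neurosphere array may hold RNA of several cell types, so the markers of each were read beside the vesicle genes. Summed over 8 astrocyte markers the signal was 5963, 4680 and 8598 on aggregation, suspension and adherent cells, and 21071 on neurospheres. Of 7 astrocyte markers tested 3 rose (Aldoc, Mt3 and Sparcl1) and 1 fell (Gja1), while 8.2% of all features rose and 11.9% fell. Sparcl1 reached the array median on neurospheres only, so it was tested only through the array where it is high. Over 10 neuronal markers the sums were 7129, 6960, 5089 and 8642, of which Tubb3 alone gave 4485, 4326, 3069 and 5991. Of 6 tested genes 1 rose (Gap43) and 1 fell (Stmn2). Neurospheres lay above all 3 R1 arrays for 5 of the 6 (against 35% of all features) and below for 1 (against 32%). Gap43, Map2 and Dcx, all among the 5, reached the array median on neurospheres only, so they were tested only through the array where they are high. Snap25 and Nefm were under the 10th percentile of neurosphere signals. Over 6 oligodendrocyte lineage markers the sums were 1620, 1813, 854 and 2599, with 1 of 4 up. Over 8 microglia and macrophage markers they were 2362, 1954, 1872 and 1870, with 0 up and 1 of 3 down, and Lyz2 and Ptprc were under the 10th percentile. Csf1r alone gave 878, 547, 403 and 1211 and did not pass (difference 1.15 ± 0.40, limma adjusted p = 0.0528). Neurospheres lay above all R1 arrays for 1 of the 3 tested, Csf1r, and below all of them for 2. Mt3 alone gave 12719 of the astrocyte sum on neurospheres. The part of these cell types in the vesicle gene results was not tested.

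The proton pump is taken first, since it is the largest single machine among these genes, with 13 subunit genes, all of them tested. The promoter sequences below show the start sites of all 8 pump genes with a promoter window, so that genes that fell (Atp6v1a, Atp6v1d), rose (Atp6v0e2) or did not pass (the other 5) can be read side by side. RefSeq (GRCm38.p6) promoter windows of 250 bases before and 50 after the start were on hand for 84 of the 102 genes, 8 of them pump genes. The motif CACGTG, the palindromic E-box core of the CLEAR element through which TFEB and its relatives are known to act on lysosomal genes, was searched in these windows; it reads the same on both strands. It was found in 7.15% of 32851 RefSeq promoter windows, in 18 of the 102 windows of these genes (17.6%) and in 4 of the 8 pump windows. The longer form TCACGTG, searched on both strands, was found in 3.77% of all windows and in the same 4 pump genes. Each stretch runs 5′ to 3′ on the gene's strand, from 170 bases before the start to 30 after it, with CACGTG in capitals.
Atp6v1a: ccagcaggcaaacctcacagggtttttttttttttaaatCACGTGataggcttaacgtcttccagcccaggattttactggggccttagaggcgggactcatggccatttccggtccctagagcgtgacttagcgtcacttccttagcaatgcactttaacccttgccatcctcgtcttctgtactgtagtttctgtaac
Atp6v1d: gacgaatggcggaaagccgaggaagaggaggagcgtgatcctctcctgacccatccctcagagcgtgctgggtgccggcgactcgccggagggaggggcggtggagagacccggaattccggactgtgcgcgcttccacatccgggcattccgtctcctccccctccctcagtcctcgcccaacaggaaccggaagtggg
Atp6v1e1: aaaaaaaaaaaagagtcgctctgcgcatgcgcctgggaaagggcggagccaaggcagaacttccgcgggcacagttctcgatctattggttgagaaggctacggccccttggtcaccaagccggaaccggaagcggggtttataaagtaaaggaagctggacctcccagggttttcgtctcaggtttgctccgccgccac
Atp6v0a1: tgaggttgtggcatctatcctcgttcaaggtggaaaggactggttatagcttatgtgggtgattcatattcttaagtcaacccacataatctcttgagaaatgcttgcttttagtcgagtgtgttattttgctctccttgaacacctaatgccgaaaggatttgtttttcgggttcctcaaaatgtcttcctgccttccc
Atp6v0b: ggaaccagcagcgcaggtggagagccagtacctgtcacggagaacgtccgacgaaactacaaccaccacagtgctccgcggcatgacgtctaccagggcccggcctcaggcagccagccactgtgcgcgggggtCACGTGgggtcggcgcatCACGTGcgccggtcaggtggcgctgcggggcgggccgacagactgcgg
Atp6v0d1: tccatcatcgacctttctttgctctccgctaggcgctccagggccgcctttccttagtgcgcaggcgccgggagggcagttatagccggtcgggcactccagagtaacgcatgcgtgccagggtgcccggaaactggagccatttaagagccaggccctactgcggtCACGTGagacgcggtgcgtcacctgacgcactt
Atp6v0e: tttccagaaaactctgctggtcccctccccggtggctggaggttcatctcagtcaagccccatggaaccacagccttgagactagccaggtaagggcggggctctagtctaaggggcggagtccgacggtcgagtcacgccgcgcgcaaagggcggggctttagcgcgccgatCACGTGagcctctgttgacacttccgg
Atp6v0e2: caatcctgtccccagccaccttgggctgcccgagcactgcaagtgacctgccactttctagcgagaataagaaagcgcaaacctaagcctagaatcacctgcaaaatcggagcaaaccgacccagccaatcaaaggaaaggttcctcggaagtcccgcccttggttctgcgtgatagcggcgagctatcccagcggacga
In order they are chr16:44139230-44139429 on the minus strand, chr12:78861609-78861808 on the minus strand, chr6:120822669-120822868 on the minus strand, chr11:101010228-101010427 on the plus strand, chr4:117887300-117887499 on the minus strand, chr8:105566035-105566234 on the minus strand, chr17:26676226-26676425 on the plus strand and chr6:48537399-48537598 on the plus strand. The motif starts 131 bases before the start of Atp6v1a, 36 and 18 before that of Atp6v0b and 3 before that of Atp6v0d1, and at base 4 of Atp6v0e. The letters are not in the printed windows of Atp6v1d, Atp6v1e1, Atp6v0a1 or Atp6v0e2. A match describes the sequence, and no binding was measured.

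V1 subunits were lower in neurospheres. All 7 V1 genes gave their lowest signal on the neurosphere array (against 32% of all features). Of the 7, 3 fell (against 11.9% of all features), 0 rose (against 8.2%), and their median difference was -0.89. Against aggregation alone, an array that also enters the main comparison, the median difference was -0.82, and 0 of the 7 passed in the fit with a scale term. Adherent cells gave the highest signal of the 4 arrays for 5 of the 7, and lay above both embryoid body arrays for 32.7% of all features. The median suspension minus adherent difference over the 7 was -0.52 (all features, 0.11). Against embryoid bodies alone the calls of Atp6v1a, Atp6v1b2 and Atp6v1d were lost. The differences were then -0.59 for Atp6v1a and -0.69 for Atp6v1b2, and against adherent cells alone -1.18 and -1.24.

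Atp6v1a, the catalytic A subunit, measured 3077 on the aggregation array, 2794 on suspension, 4439 on adherent cells and 1938 on neurospheres. The neurosphere array was the lowest and the adherent array the highest. The difference was -0.89 ± 0.27 (SE; adjusted p = 0.027), and its other probe sets, with differences of -0.28 and -0.57, lay in the same direction. Atp6v1b2, the B subunit that shares the nucleotide sites with A, measured 3225 on the aggregation array, 2676 on suspension, 4325 on adherent cells and 1809.5 on neurospheres, in the same order of arrays. It fell by 0.97 ± 0.28 (adjusted p = 0.0184), and the difference in its other probe set was -0.64. Atp6v1d, part of the central rotor stalk, measured 1687 on the aggregation array, 1046 on suspension, 1911 on adherent cells and 676 on neurospheres. It fell by 1.20 ± 0.35 (adjusted p = 0.0192), and no R1 array reached down to the neurosphere value. Without the aggregation array the adjusted p was 0.329 for Atp6v1a, 0.294 for Atp6v1b2 and 0.247 for Atp6v1d. Without suspension it was 0.205, 0.138 and 0.0429. Over the 14 alternatives it ran from 0.0176 to 0.67, from 0.0143 to 0.532 and from 0.0181 to 0.247.

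The other V1 genes did not pass the test. Atp6v1c1, the C subunit that ties V1 to V0, was nearest, with 881, 785, 1086 and 442 on aggregation, suspension, adherent cells and neurospheres and a difference of -1.05 ± 0.37 (adjusted p = 0.0544). Its neurosphere value was also clear of the R1 arrays. The regulatory H subunit gene Atp6v1h (1683, 943, 1363 and 869 in the same order) and the stalk genes Atp6v1g1 (2193, 2283, 2648 and 1823) and Atp6v1e1 (2020.0, 1771, 1695 and 1561) had their lowest values in neurospheres by narrower gaps.

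Among V0 subunits the counts were different. Of 6 genes 2 rose and 0 fell (8.2% of all features rose and 11.9% fell), and the median difference was 0.27. Neurospheres were above all R1 arrays for 3 (against 35% of all features) and below for 1 (against 32%). The difference between the V1 and V0 groups was not tested.

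Atp6v0e2, a small membrane subunit of the e type, measured 1906 on the aggregation array, 1916 on suspension, 1269 on adherent cells and 4984 on neurospheres. The embryoid body arrays were nearly equal, adherent cells were the lowest and neurospheres stood 2.57-fold above the highest R1 array on the signal + 32 scale. The difference was 1.66 ± 0.28 (adjusted p = 0.000331), and it passed in 12 of 14 alternatives, the exceptions being the fit without the intensity trend (adjusted p = 0.0715) and the fit with a scale term (adjusted p = 0.157). Its partner form Atp6v0e measured 1436, 1179, 1401 and 1436 in the same order, with a difference of 0.09 ± 0.32 (adjusted p = 0.877), and its arrays overlapped. Atp6v0a2, an a subunit that lines the proton path, known for its role in the Golgi and endosomes, measured 497 on the aggregation array, 408 on suspension, 765 on adherent cells and 1435 on neurospheres. It rose by 1.24 ± 0.39 (adjusted p = 0.0292), and the differences in its other probe sets were 0.69 and 1.02. For Atp6v0a2 the adjusted p was 0.144 without aggregation and 0.152 without suspension, within 0.00943 to 0.226 over the alternatives.

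The remaining V0 genes did not pass. Atp6v0a1, the a subunit best known from synaptic vesicles, measured 497, 509, 305 and 548 on aggregation, suspension, adherent cells and neurospheres. Atp6v0b, a proteolipid of the rotor ring, measured 2933, 1767, 4022 and 3046, with neurospheres inside the R1 range. Atp6v0d1, which joins the ring to the central stalk, measured 3334, 1806, 2894 and 1780.4, where neurospheres and suspension were almost equal. Over all 13 pump genes the median difference was -0.41. Signals of different probe sets are not comparable, so no ratio of V1 to V0 RNA can be read from them.

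**Figure D2:**
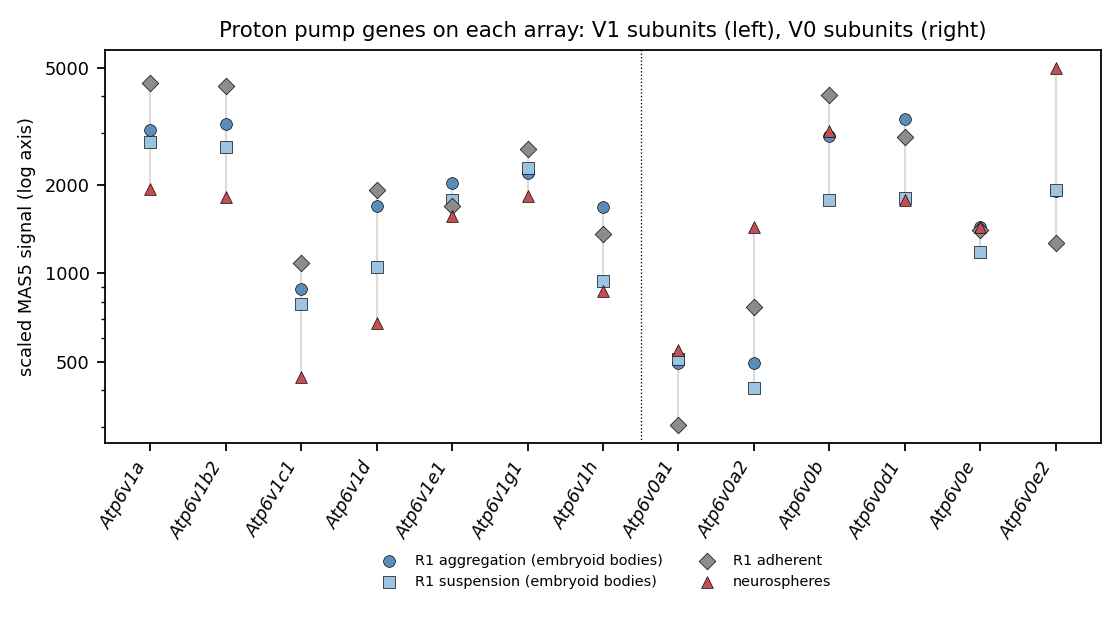
Scaled MAS5 signal (log axis) of the 13 proton pump genes on each of the 4 arrays, V1 genes to the left of the dotted line and V0 genes to the right. Each symbol is 1 array. The red triangle of neurospheres is the lowest symbol for all 7 V1 genes, and it is the highest for Atp6v0a1, Atp6v0a2 and Atp6v0e2.

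Among the vesicle SNAREs, 4 of 7 Vamp genes were tested, 1 rose (against 8.2% of all features) and 0 fell (against 11.9%). Vamp2, synaptobrevin 2, the main v-SNARE of synaptic vesicles, measured 277 on the aggregation array, 281 on suspension, 216 on adherent cells and 854 on neurospheres. The R1 arrays lay close together and neurospheres were 2.83-fold above the highest of them on the signal + 32 scale. The difference was 1.67 ± 0.51 (adjusted p = 0.0242). The adjusted p was 0.139 without aggregation and 0.118 without suspension, in a range of 0.0201 to 0.362 over the alternatives. Of the neuronal markers tested on the same arrays Gap43 rose and Stmn2 fell, and their part in the Vamp2 result was not tested. Vamp4, of the trans-Golgi network, measured 153, 184, 129 and 413 in the same order of arrays, with neurospheres above every R1 array but an adjusted p of 0.181 (difference 1.31 ± 0.66). Vamp4 reached the array median on neurospheres only, so it was tested only through the array where it is high. Vamp3, cellubrevin, a v-SNARE of recycling endosomes, measured 351, 409, 316 and 674 and did not pass. Vamp8, endobrevin, which serves late endosomes and regulated secretion, went the other way with 1170.5, 847, 687 and 391 and a difference of -1.02 ± 0.39 (adjusted p = 0.073). Its probe set is of a class that can match related transcripts.

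Syntaxins held the gene with the deepest fall, Stx3. Of 10 Stx genes 9 were tested, 1 rose (against 8.2% of all features), 1 fell (against 11.9%), and the median difference was 1.07. Stx3, a target SNARE known from the apical surface of epithelia and from ribbon synapses, measured 699.8 on the aggregation array, 1161 on suspension, 719.8 on adherent cells and 41.8 on neurospheres. The lowest R1 array was 9.92-fold above neurospheres on the signal + 32 scale. It fell by 3.51 ± 0.48 (adjusted p = 3.02e-05) and passed in all 14 alternatives, with differences from -4.24 to -2.68. A second probe set for Stx3 gave 703, 475, 244 and 30.3, a difference of -2.72. Another stayed under the signal filter on every array, with 45.6, 187, 23.4 and 57.9, and did not show the fall. Stxbp2, or Munc18-2, a known partner of syntaxin 3 in exocytosis, belongs to the list of SNARE regulators and not to the genes chosen by name. It measured 918 on the aggregation array, 1113 on suspension, 776 on adherent cells and 62.6 on neurospheres, a difference of -3.28 ± 0.44 (adjusted p = 2.31e-05).

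The gene that rose was Stx12, an endosomal syntaxin, with 862 on the aggregation array, 1051 on suspension, 978 on adherent cells and 2129 on neurospheres. All R1 arrays were within a narrow band below neurospheres. The difference was 1.12 ± 0.33 (adjusted p = 0.0218), with an adjusted p of 0.221 without aggregation and 0.101 without suspension (range 0.0212 to 0.245). Stx7, which pairs with Stx8 in late endosomes, had 433, 608, 532 and 1196 in the same order and just missed the threshold (difference 1.15 ± 0.41, adjusted p = 0.0532). Stx8 with 231, 305, 140.0 and 515, Stx6 of the trans-Golgi network with 266, 94.8, 150.0 and 416 and Stx4a of the plasma membrane with 386, 626, 441 and 1015 also had their highest values in neurospheres, and none of the 3 passed. Stx5a, of the Golgi, and Stx2, of the plasma membrane, had neurosphere values within the R1 range. Stx18, of the endoplasmic reticulum, measured 387, 313, 324 and 426.

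The Snap genes gave no call among the 2 of 4 that were tested (20.1% of all features were called). Snap47, a SNAP25 relative of intracellular membranes, measured 869 on the aggregation array, 738 on suspension, 1753 on adherent cells and 874 on neurospheres, with a difference of -0.43 ± 0.35 (adjusted p = 0.41). The adherent array alone stood out, 1753 against values close together on the other arrays. Snap23, the widely expressed counterpart of neuronal Snap25, measured 203, 307, 240.2 and 247, with overlapping groups and a difference of 0.01 ± 0.60 (adjusted p = 0.993).

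Of 12 synaptotagmins only 3 reached the signal filter, and 1 of them rose (against 8.2% of all features). Syt11, a synaptotagmin that does not act as a calcium sensor and is known to restrain endocytosis in neurons, measured 141 on the aggregation array, 123 on suspension, 81.6 on adherent cells and 1896 on neurospheres. It was dim in all R1 cells and 11.2-fold brighter in neurospheres than on the highest R1 array, on the signal + 32 scale. The difference was 3.82 ± 0.60 (adjusted p = 0.000129), the largest rise among the tested genes. It reached the array median on the neurosphere array only, so it was tested only through the array where it is high. It passed in each of the 13 alternatives that tested it, and a filter that asks for 2 arrays at the median removes it. Syt3, with 709.7, 538, 357 and 773, and Syt2, with 159, 251, 49.4 and 64.8, did not pass.

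Rab GTPases were the largest group, with 33 genes, of which 26 were tested. In neurospheres 5 rose and 1 fell (8.2% of all features rose and 11.9% fell), and the median difference was 0.50. Neurospheres were above all R1 arrays for 14 (against 35% of all features) and below for 5 (against 32%). Rab31, which acts between the trans-Golgi network and endosomes, measured 301 on the aggregation array, 386 on suspension, 234 on adherent cells and 3489 on neurospheres. Neurospheres were 8.42-fold above the highest R1 array on the signal + 32 scale, and the difference was 3.48 ± 0.42 (adjusted p = 7.00e-06). Rab31 passed in all 14 alternatives, and its second probe set, with 342, 191, 129 and 1317, showed a difference of 2.64. Rab33a, a Golgi Rab, measured 139 on the aggregation array, 249 on suspension, 49.6 on adherent cells and 684 on neurospheres, where even the R1 arrays spread widely. It rose by 2.42 ± 0.68 (adjusted p = 0.0158), with an adjusted p of 0.09 without aggregation and a range of 0.0118 to 0.303 over the alternatives.

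Rab11a and Rab11b, Rabs of recycling endosomes, both rose. Rab11a measured 686 on the aggregation array, 1159 on suspension, 695 on adherent cells and 1952 on neurospheres, a difference of 1.28 ± 0.37 (adjusted p = 0.0188). Its second probe set gave 272, 42.2, 111 and 432 in the same order, a difference of 1.66. On that probe set the aggregation array was 2.03 above suspension. Rab11b measured 578 on the aggregation array, 601 on suspension, 756 on adherent cells and 1610.4 on neurospheres, a difference of 1.23 ± 0.37 (adjusted p = 0.0218). For both, neurospheres were above every R1 array. Without aggregation the adjusted p was 0.204 for Rab11a and 0.164 for Rab11b, and without suspension that of Rab11b was 0.112. The ranges over the alternatives were 0.018 to 0.204 and 0.0149 to 0.207. Their relative Rab25, known from epithelia, measured 496, 549.9, 309 and 312 on aggregation, suspension, adherent cells and neurospheres and did not pass.

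Rab6a, which returns membrane through the Golgi, measured 899 on the aggregation array, 1225 on suspension, 1055 on adherent cells and 2406 on neurospheres, a difference of 1.17 ± 0.33 (adjusted p = 0.0164). Its other probe set gave 1395, 1476, 555 and 1056, with neurospheres inside the R1 range and a difference of 0.23, so the rise of Rab6a rests on 1 probe set. Its adjusted p was 0.204 without aggregation and 0.0639 without suspension (range 0.0161 to 0.204). Rab1a, which carries cargo from the endoplasmic reticulum to the Golgi, measured 1669.6 on the aggregation array, 1140.3 on suspension, 1689.9 on adherent cells and 475 on neurospheres. It fell by 1.62 ± 0.35 (adjusted p = 0.00237), and the lowest R1 array was 2.31-fold above neurospheres on the signal + 32 scale. Without aggregation its adjusted p was 0.0543 (range 0.00206 to 0.0934). Its second probe set did not reach the filter, with 128, 40.6, 13.3 and 26.6.

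No other tested Rab gene passed. Rab2a, of the early secretory path, had 396, 470.5, 498 and 1026 and Rab21, of early endosomes, had 109, 202, 364 and 655, both highest in neurospheres. Rab23, a known inhibitor of hedgehog signalling, measured 234 on the aggregation array, 221 on suspension, 256 on adherent cells and 62 on neurospheres, with R1 arrays in a tight band. Its difference of -1.54 ± 0.71 had an adjusted p of 0.139. Rab3a, of synaptic vesicles, measured 389, 339, 446 and 365, with neurospheres inside the R1 range. Rab5a, a marker of early endosomes, measured 1294, 1385, 1876 and 1332, also inside that range. The same held for Rab7, a marker of late endosomes, with 1358, 928, 1079.6 and 1349.

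The 6 genes that carry a Rab's name without being a Rab gave 0 calls among 5 tested (20.1% of all features were called). Of the 5 tested, 2 are antisense genes, Rab10os and Rab26os, which the array may not tell from their partners. Rab5if measured 1652, 1447, 1960.0 and 2584 in the same order, a difference of 0.56 ± 0.30 (adjusted p = 0.199). Rab3ip, or Rabin8, an exchange factor for Rab8, measured 305, 456, 231 and 521, a difference of 0.76 ± 0.51 (adjusted p = 0.317). Both were highest in neurospheres, Rab3ip by little.

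Of 14 adaptor genes tested 3 passed (21.4%, against 20.1% of all features), 2 higher and 1 lower. Of 5 AP-1 genes tested 1 rose, of 4 AP-2 genes 1 rose, and of 5 AP-3 genes 1 fell. Ap1m1, the medium chain of AP-1 that reads sorting signals at the trans-Golgi network, measured 1145 on the aggregation array, 786 on suspension, 937 on adherent cells and 2369 on neurospheres. It rose by 1.30 ± 0.34 (adjusted p = 0.0102), and the difference in its second probe set was 1.02. Ap1g1, the large gamma chain of the same complex, measured 688, 423, 1002 and 432 in the same order and did not pass, nor did the small chain Ap1s1 with 1428, 1242, 1283 and 2021 or the large beta chain Ap1b1 with 1739.5, 1179, 1494 and 849.

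Ap2a2, a large alpha chain of the plasma membrane adaptor AP-2, measured 3797 on the aggregation array, 2769.5 on suspension, 1558 on adherent cells and 4229 on neurospheres. It passed with 0.90 ± 0.29 (adjusted p = 0.0318), yet aggregation was close to neurospheres and the low value was that of adherent cells. Against aggregation alone the difference was 0.15. Its other probe set gave 962, 702, 1168 and 586, a difference of -0.71 in the opposite direction, and with the probe sets averaged the adjusted p was 0.863. The medium chain Ap2m1, among the brightest of these genes, measured 4809, 3769.9, 4583 and 5906 and did not pass. Ap3b1, the beta chain of AP-3, which sorts cargo to lysosomes and pigment granules and is mutated in pearl mice, measured 1838 on the aggregation array, 2393 on suspension, 2177 on adherent cells and 834 on neurospheres. It fell by 1.32 ± 0.31 (adjusted p = 0.00453), with every R1 array more than 2-fold above neurospheres on the signal + 32 scale. Other AP-3 genes did not pass, with Ap3s1 at 624, 609, 437 and 1116 and Ap3d1 at 1304, 1263, 1708 and 1097. Without aggregation the adjusted p was 0.0546 for Ap1m1 and 0.219 for Ap2a2, and without suspension it was 0.0983, 0.304 and, for Ap3b1, 0.071. The ranges over the alternatives were 0.0102 to 0.408 for Ap1m1, 0.0072 to 0.948 for Ap2a2 and 0.00402 to 0.322 for Ap3b1.

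**Figure D3:**
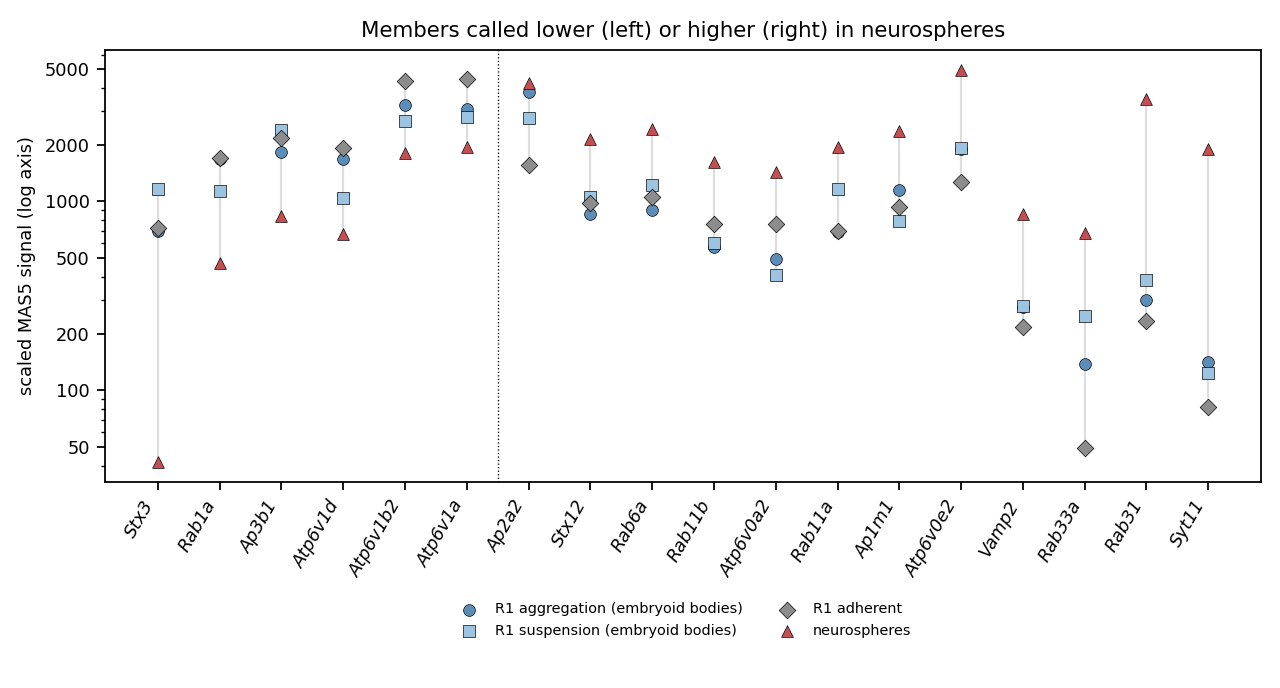
Scaled MAS5 signal (log axis) on each of the 4 arrays for the 18 genes that fell (left of the dotted line) or rose (right) in neurospheres. Each symbol is 1 array, and the neurosphere symbol lies outside the R1 symbols for all 18, by far the most for Stx3, Rab31 and Syt11, and by little for Ap2a2.

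The 26 untested genes never reached the array median, so they were not tested, and a low signal here is not a measured absence. They include 9 of the 12 synaptotagmins. Snap25, the neuronal target SNARE, measured 17.2 on the aggregation array, 15.8 on suspension, 4.1 on adherent cells and 15 on neurospheres. Syt1, the calcium sensor of fast transmitter release, measured 94.2, 127, 70.2 and 110.4 in the same order, and Stx1a, the neuronal syntaxin, 89.4, 59.7, 83 and 57.7. None of these 3 was higher in neurospheres than on every R1 array. Just outside the filter was Snap91, the clathrin assembly protein AP180 of nerve terminals, with 73.9, 51.2, 80.6 and 239 and a largest signal of 0.989 times its array median. Just inside were Rab26os at 1.004 times and Syt2 at 1.064 times. Over the 26 genes this ratio ran from 0.0765 to 0.989.

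The second comparison asked how R1 cells in embryoid bodies differed from R1 cells on gelatin. By the limma test 0 of the 76 genes differed, against 0.351% of all features (18 higher and 6 lower in embryoid bodies). At an unadjusted limma p under 0.05, 2 of the 76 genes were higher and 2 lower in embryoid bodies. Of all 6843 features, 582 were higher and 401 lower at the same cutoff, a larger share each way. The genes at that cutoff are named here after their values were seen. Ap2a2 had a difference of 1.04 ± 0.30 (adjusted p = 0.137), while its other probe set had one of -0.49, in the opposite direction. Rab26os had a difference of 2.04 ± 0.81 (adjusted p = 0.261), with 210.2, 215, 27.4 and 243 on aggregation, suspension, adherent cells and neurospheres. The lower ones were Snap47, with a difference of -1.10 ± 0.36 (adjusted p = 0.198), and Atp6v0b, with -0.81 ± 0.32 (adjusted p = 0.257). Adherent cells lay below both embryoid body arrays for 27 of the 76 genes (35.5%, against 42.2% of all features) and above both for 29 (38.2%, against 32.7%). The median difference was -0.02 for these genes and 0.10 for all features. The adherent array is single, so a miss of the threshold does not show that the cultures were alike.

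**Figure D4:**
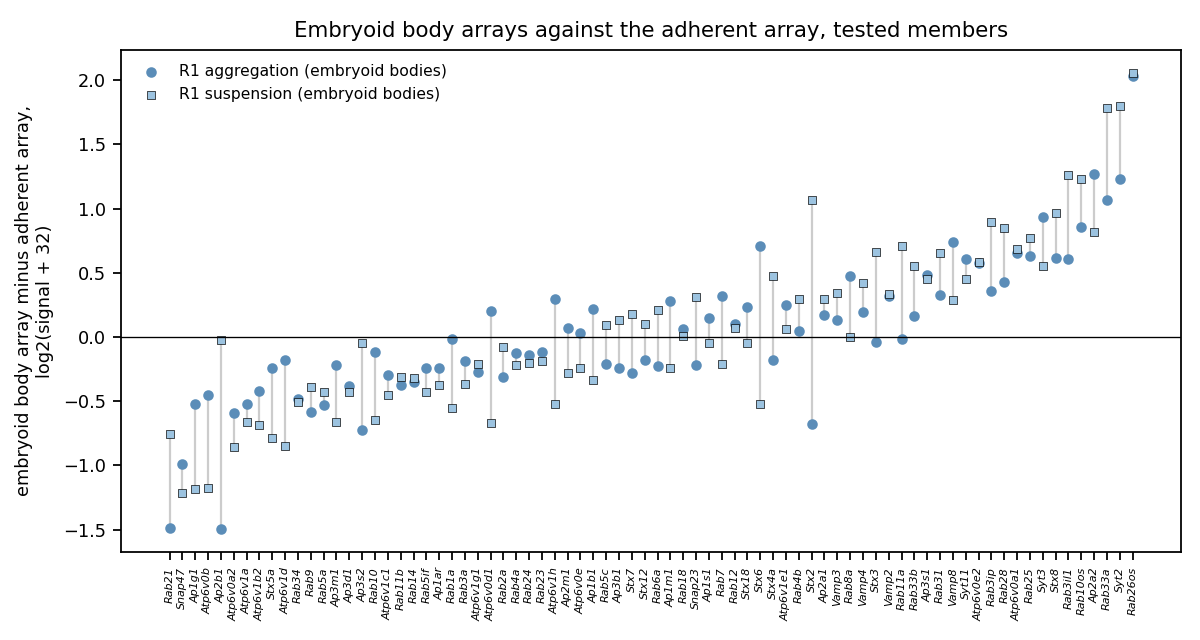
Difference of each embryoid body array from the adherent array, in log2(signal + 32), for the 76 tested genes, ordered by the mean of the pair. Circles are aggregation and squares suspension, and a line joins the pair of each gene. Most pairs lie between -1 and 1, with Rab26os at the high end at 2.04 and the long lines of Stx2 and Ap2b1 showing genes on which the embryoid body arrays disagree.

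The embryoid body arrays were then set side by side, with no test, since they are the replicates of 1 group. Of the 76 genes 3 differed at least 2-fold between them on the signal + 32 scale (3.95%, against 14.3% of all features). Stx2 measured 279 on aggregation and 1012 on suspension, Ap2b1 132 and 421, and Stx6 266 and 94.8. Aggregation was the higher array for 39 of the 76 genes (51.3%, against 48.6% of all features) and for 10 of the 13 pump genes. Within the pump the widest gaps were those of Atp6v0d1, with 3334 against 1806, and Atp6v1h, with 1683 against 943.

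Of 75 partner genes of these machines tested, in 8 lists, 10 passed between neurospheres and R1 cells (13.3%, against 20.1% of all features), 5 of them in the list of sorting nexins, retromer and exocyst. By direction, 8.2% of all features rose and 11.9% fell, and each list below is to be read beside these shares. No partner gene differed between embryoid bodies and adherent cells by the limma test. Of 4 proton pump partners 0 rose and 0 fell (median difference 0.01). Rnasek, a small pump-associated protein, measured 4842, 3008, 3345 and 3849 on aggregation, suspension, adherent cells and neurospheres, a difference of 0.11 ± 0.30 (adjusted p = 0.835). Atp6ap1, an accessory subunit needed for assembly, measured 804, 422, 990.2 and 1348, a difference of 0.80 ± 0.40 (adjusted p = 0.178). Of 8 SNARE regulators 1 fell, Stxbp2 (median -0.05). Among 8 other SNAREs 0 passed (median 0.15), and the brightest were Use1, of the endoplasmic reticulum, with 1814, 1513, 1626 and 1365 (difference -0.26 ± 0.31, adjusted p = 0.59), and Gosr2, of the Golgi, with 714, 997, 626 and 1069 (difference 0.54 ± 0.37, adjusted p = 0.333). Of 6 Rab regulators 1 fell (median -0.49): Rabggta, a subunit of the enzyme that attaches the lipid anchor to Rabs, with 1006, 726, 1708 and 298, a difference of -1.91 ± 0.38 (adjusted p = 0.0012).

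Of 13 clathrin and endocytosis genes 1 rose (median 0.34): Epn2, epsin 2, which bends membrane at clathrin pits, with 1992, 1686, 1111 and 3873 in the same order and a difference of 1.42 ± 0.29 (adjusted p = 0.00182). Of 16 COPI and COPII coat genes 1 rose (median 0.28): Arcn1, the delta subunit of COPI, with 77.8, 75.5, 154 and 714 and a difference of 2.39 ± 0.72 (adjusted p = 0.0233). It reached the array median on neurospheres only, so it was tested only through the array where it is high. Its probe set is of a class shared between transcripts, and it did not pass when either embryoid body array was left out. Of 8 synaptic and dense core vesicle cargo genes 1 fell (median -0.08): Syngr1, synaptogyrin 1, a membrane protein of synaptic vesicles, with 1932, 1624, 1614 and 651 and a difference of -1.33 ± 0.32 (adjusted p = 0.0054). Without aggregation 0 of that list fell. Of 12 sorting nexin, retromer and exocyst genes 2 rose and 3 fell (median -0.07). Snx2 had 1704, 2315, 2184 and 616, a difference of -1.71 ± 0.32 (adjusted p = 0.000692), while its retromer partner Snx1 had 559, 518, 359 and 1073, a difference of 1.23 ± 0.41 (adjusted p = 0.0412). Vps26a, of the retromer core, had 2316, 1982, 1816 and 807, a difference of -1.26 ± 0.31 (adjusted p = 0.0061). Vps4a, an ATPase that disassembles ESCRT coats, had 284, 600.2, 354 and 1106, a difference of 1.45 ± 0.47 (adjusted p = 0.0354). Without aggregation 0 of that list rose and 1 fell, and without suspension 0 rose and 2 fell.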

How the data were processed

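The deposited values are linear MAS5 signal intensity per probe set, which the authors made with MAS5, per the submitters' processing notes. Its settings and version, and a genome build, were not given in the sources used here. The chip type and an antibody-amplified scan are recorded per the file headers. No detection calls were used. Of 12488 probe sets, 66 controls were left out, and 10833 of the other 12422 had 1 gene in the platform annotation. Arrays were scaled to a trimmed mean (2% at each end) of 500, 32 was added and log2 taken. Probe sets at the array median on at least 1 array were kept (8031), with the brightest per gene, giving 6843 features.

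One limma model (version 3.58.1, R 4.3.3; 3 groups, intensity trend, prior degrees of freedom 17.34, residual 1, two-sided) was fitted over all 4 arrays and tested on simulated data. The simulated arrays were independent with the same spread, so they cannot show whether the single arrays share the spread of the embryoid bodies. Genes named with statistics were those called, up to 12 each way, the 2 brightest of a role with no call, and from each list up to 4 called genes or the 2 brightest. Lists came from textbook knowledge. The genes and lists were chosen with earlier results of these data known. Alternatives covered normalization, the amount added, filters, the choice of probe sets, the variance model, the R1 group used, the deposited scale and each embryoid body array left out.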

Additional observations from a re-analysis of the deposited data

How the results depend on the processing

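The number of arrays limits every call. Against 12 genes higher and 6 lower in neurospheres, the count of higher genes was 6 with R1 cells as 1 group, 2 without the intensity trend, 6 without the signal filter, 3 to 5 with an embryoid body array left out, and 2 with R1 cells as 1 group and the deposited scale as a term. The count of lower genes was 3 with R1 cells as 1 group, 1 without the trend, 2 to 3 with an array left out and 1 with the scale term. Apart from the scale term fit, shares of all features under these alternatives are not given, so the loss cannot be set against that of all features. The median difference of the tested genes, 0.41, was 0.29 against embryoid bodies alone and 0.17 with the scale term, the alternative chosen after seeing the data. Of the 18 calls, all 18 were kept with 1 or 100 added in place of 32 and without shared probe set classes, 17 with quantile normalization (Atp6v1a lost) and with a filter on at least 2 arrays (Syt11 not tested), 14 against adherent cells alone, 12 with the mean of probe sets, 11 against embryoid bodies alone and 3 with the scale term. Rab31 and Stx3 passed in all 14 alternatives, and no call changed sign in any of them. With quantile normalization the median of all features was 0.04 in place of 0.10. No gene passed between embryoid bodies and adherent cells in any alternative with a test, and leaving out an embryoid body array gave no test there. No paired analysis was possible because no label links arrays across groups, and neurospheres and adherent cells gave 1 array each. Low signals were not separated from background.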
